A study of Mus musculus with 25 samples.

Results

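Lineage-negative (Lin-) lung cells of mice without fibroblast Fas were compared at 6 and 3 weeks after bleomycin, to ask which transcripts fell and which rose in the period when fibrosis would normally resolve. The comparison held 8 bulk RNA-seq libraries, 4 at each week, of the 25 samples of the series (20 bulk and 5 single-cell), and the libraries were chosen by their labels alone. Both groups were Col1a1-Cre-ERT2;Fas fl/fl mice given intratracheal bleomycin and then tamoxifen, and are called Fas-/-. By the study's methods, tamoxifen dosing ended 3 weeks after bleomycin. The 3-week mice were thus taken at the end of dosing and the 6-week mice after a gap. Week and time since the last tamoxifen dose cannot be told apart. The Cre recombinase is driven by the Col1a1 promoter, so that deletion of the floxed exon is aimed at collagen I-producing cells. Cells were sorted as negative for CD45, CD31, CD326 and DAPI, which is meant to remove leukocytes, endothelium, epithelium and dead cells. For comparison, 8 bulk libraries came from Fas+/+ mice, which had the same genotype and the same bleomycin but corn oil in place of tamoxifen, and 4 came from naive mice, which had no bleomycin. Genotype and tamoxifen are thus 1 factor. The study's statistics section counts individual animals as replicates, but the labels tie no library to 1 mouse. Several libraries held transcripts of both sexes, as given below.

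After bleomycin injures the alveolar epithelium, fibroblasts proliferate, some become profibrotic cells that secrete collagen and provisional matrix, and in young mice most of this response recedes over the following weeks. Fas is a death receptor of the tumor necrosis factor receptor family, and its ligation starts extrinsic apoptosis through the adaptor FADD and caspase-8. Type I and type II interferons act through STAT and IRF transcription factors on a common set of antiviral genes, the interferon-stimulated genes, and fibroblasts respond to both. The Lin- gate also holds pericytes, smooth muscle cells and mesothelial cells, so a change in a bulk library can be a change within cells or a change in which cells were sorted. For any gene below, fewer cells of a type and less RNA per cell cannot be told apart in these bulk data.

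The 8 libraries held 17655597 to 23737902 counts. Replicate 4 at 3 weeks stood apart from the other 3 libraries of its group, its counts differing from theirs by a per-gene chi-square between 135 and 180, where those 3 differed among themselves by 6.71 to 10.7. Summed over 18 blood endothelial markers, the libraries held 1984, 1191, 1249 and 14070 CPM at 3 weeks against 237, 4472, 752 and 531 CPM at 6 weeks. The gate excludes CD31, yet Pecam1, which encodes CD31, stood at 1483 CPM in replicate 4 at 3 weeks and 464.9 CPM in replicate 2 at 6 weeks. Results were therefore also computed without replicate 4 at 3 weeks and without both of these libraries. Xist, a transcript of the inactive X chromosome, and Ddx3y, a gene of the Y chromosome, were both above 7 CPM in 3-week replicates 1, 2 and 3 and in 6-week replicates 2 and 4. Markers of fibroblasts were present in all 8 libraries, with Col1a1 at 4790 to 13460 CPM, Dcn at 594.3 to 1523 CPM and Pdgfra at 1081 to 2033 CPM. The 2 single-cell libraries of Fas-/- mice ran against the week labels of the bulk libraries, as described at the end, so every direction given here rests on the labels of the bulk libraries.

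Fas itself (ENSMUSG00000024778, chr19:34290666-34327772, forward strand) did not separate the weeks. It was measured at 42.4, 35.4, 34.4 and 64.9 CPM at 3 weeks against 35.6, 46.6, 39.1 and 40.3 CPM at 6 weeks (a log2 fold change of -0.13, SE 0.20 and adjusted p = 0.709), and its groups overlapped. The counts cover the whole gene, so the deleted exon is not resolved and these values check neither the labels nor the deletion.

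Of 47729 genes in the table, 15773 passed the filter on low counts and were tested. With the threshold set at an adjusted p of 0.05 (edgeR), 706 genes were higher at 6 weeks (4.48% of those tested) and 716 were lower (4.54%). The falls were larger than the rises: a log2 fold change of at least 1 in size was seen in 306 of the lower genes and 68 of the higher genes, and one of at least 2 in 170 and 5. All 6-week libraries lay above all 3-week libraries in 1471 genes (9.33%) and below them in 1277 (8.10%). The median log2 fold change of all tested genes was -0.0075. The counts of list members given below stand beside these 2 shares of all genes, 4.48% higher and 4.54% lower. At an unadjusted p under 0.05 (edgeR), 1985 of the 15773 genes were higher and 2046 lower. Members counted below at an unadjusted p under 0.05 stand beside those numbers. The number of calls depended on single libraries. It dropped by more than 1.5 times to 341, 382, 386 and 457 higher genes without 6-week replicate 3, 6-week replicate 4, 3-week replicate 2 and 3-week replicate 1, and to 227, 308, 358 and 416 lower genes without 6-week replicate 3, 3-week replicate 2, 6-week replicate 4 and 6-week replicate 1. Without both libraries high in endothelial markers it was 379 higher and 490 lower.

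**Figure D1:**
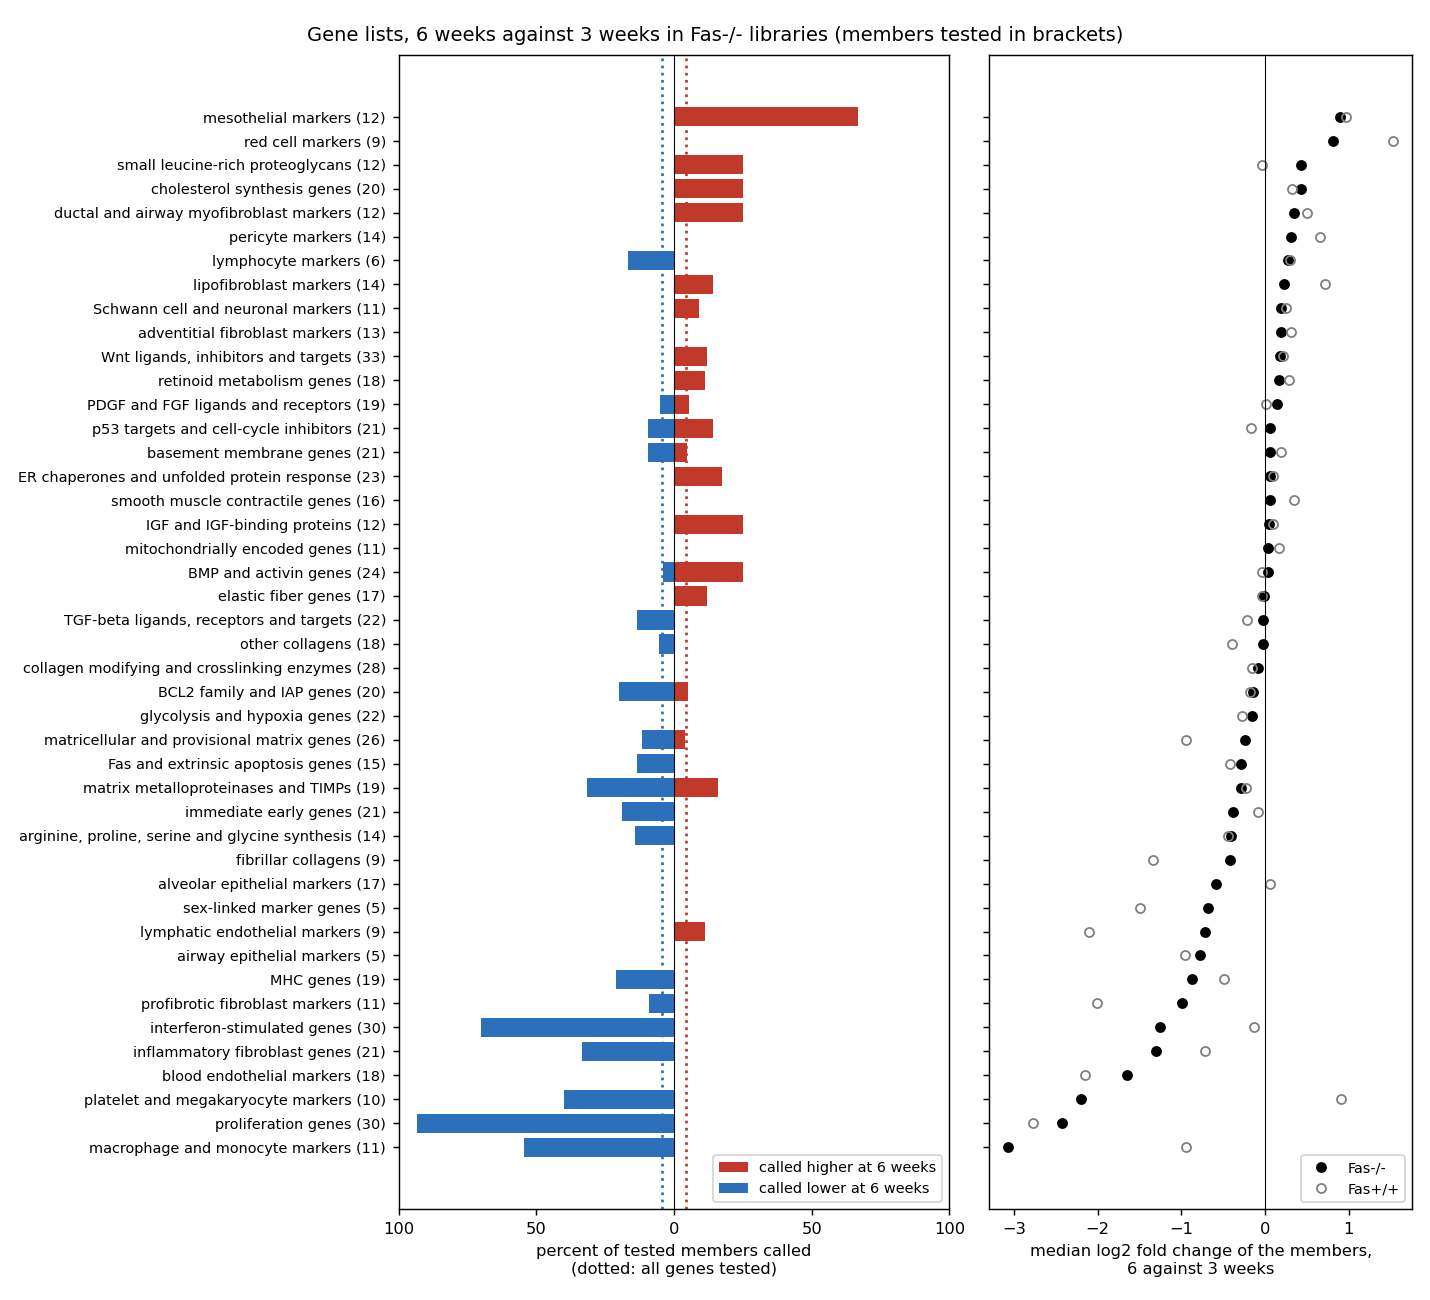
For each of 44 gene lists (members tested in brackets), the left panel shows the percent of tested members called higher (red, to the right) or lower (blue, to the left) at 6 weeks in Fas-/- libraries, with dotted lines at the shares of all tested genes, 4.48% and 4.54%. The right panel shows the median log2 fold change of the members, 6 against 3 weeks, in Fas-/- (filled) and Fas+/+ (open) libraries: the interferon-stimulated genes have a median of -1.26 in Fas-/- and -0.14 in Fas+/+ libraries, while proliferation genes and mesothelial markers have similar medians in both.

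Interferon-stimulated genes fell between 3 and 6 weeks. Of 30 members tested, 21 were called lower (70% of them, against 4.54% of all genes), none was called higher, and the median log2 fold change was -1.26. This list, like the others, was chosen with earlier results of these data known, so its share is not independent of them. The count was 19 to 22 with each Fas-/- library left out in turn, and it was 20 without both libraries high in endothelial markers. In 22 of the 30 members every 6-week library lay below every 3-week library, which was the case in 8.10% of all tested genes.

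The promoters of these genes are shown because the interferon-stimulated response element, a site of IRF proteins and their complexes, has a recognisable core. In the 250 bases before the transcription start (RefSeq, GRCm38.p6), the core was searched as GAAANNGAAA on both strands, overlapping matches included. It was found in 936 of 27018 genes (3.46%) and in 3.23% of the tested genes. Of the 21 list members with a RefSeq window it was found in 14 (66.7%), and in 10 of the 14 of these that were called lower (71.4%). Members that were not called thus held it too. Genes were printed below only if their window holds a match. The windows of 3 called genes follow, 5' to 3' on the gene's strand, with the core and its overlapping copies in capitals: Isg15 (chr4:156200819-156201068, reverse strand), Bst2 (chr8:71537473-71537722, reverse strand) and Stat2 (chr10:128270248-128270497, forward strand, where the match is on the other strand).
Isg15: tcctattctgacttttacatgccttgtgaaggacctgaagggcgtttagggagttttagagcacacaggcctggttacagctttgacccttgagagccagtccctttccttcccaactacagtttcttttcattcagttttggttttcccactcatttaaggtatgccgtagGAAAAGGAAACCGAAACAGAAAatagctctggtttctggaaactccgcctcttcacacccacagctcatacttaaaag
Bst2: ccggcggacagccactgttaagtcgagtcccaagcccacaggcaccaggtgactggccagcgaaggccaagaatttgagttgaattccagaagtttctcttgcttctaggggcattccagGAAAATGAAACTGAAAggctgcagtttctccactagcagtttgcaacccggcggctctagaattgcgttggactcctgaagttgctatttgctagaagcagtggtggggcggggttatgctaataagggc
Stat2: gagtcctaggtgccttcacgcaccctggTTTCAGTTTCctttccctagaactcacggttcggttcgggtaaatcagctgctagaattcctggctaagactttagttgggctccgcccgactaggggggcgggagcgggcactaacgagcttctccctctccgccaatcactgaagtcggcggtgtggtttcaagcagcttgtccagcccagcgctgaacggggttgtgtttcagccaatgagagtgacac
A match is a description of the letters and not evidence of binding in these cells.

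The transcription factors of the pathway fell. Irf7 (ENSMUSG00000025498, chr7:141262706-141266481, reverse strand), which amplifies the type I interferon response, was at 64.3, 71.9, 61.1 and 61.7 CPM at 3 weeks against 21.9, 19.9, 18.6 and 14.6 CPM at 6 weeks. Every 3-week library exceeded every 6-week library by more than 2-fold, and the adjusted p was the smallest of the comparison, shared with Usp18 and Angpt2 (a log2 fold change of -1.79, SE 0.19 and adjusted p = 0.00034). Stat2, a signal transducer of the type I response, was at 116, 127, 128 and 174 CPM at 3 weeks against 65.8, 71.1, 73.7 and 75 CPM at 6 weeks (a log2 fold change of -0.93, SE 0.14 and adjusted p = 0.0016). Its groups did not overlap, and 3-week replicate 4 was the highest library. Irf1, a factor induced mainly by type II interferon, had overlapping groups (a log2 fold change of -0.34, SE 0.24 and adjusted p = 0.404).

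Effectors and regulators fell as well. Isg15, a ubiquitin-like modifier, was at 25.9, 30.2, 23 and 22.6 CPM at 3 weeks against 8.09, 6.2, 4.57 and 3.64 CPM at 6 weeks (a log2 fold change of -2.18, SE 0.32 and adjusted p = 0.0012). Usp18, the protease that removes Isg15 and damps receptor signaling, was at 19.4, 22.2, 19.4 and 27.7 CPM at 3 weeks against 9.71, 7.53, 6.6 and 6.1 CPM at 6 weeks (a log2 fold change of -1.57, SE 0.18 and adjusted p = 0.00034). In both genes all 6-week libraries were below all 3-week libraries. Oasl2, of the oligoadenylate synthetase-like family, was at 104, 105, 103 and 157 CPM at 3 weeks against 49.8, 48.8, 43.6 and 50.1 CPM at 6 weeks (a log2 fold change of -1.29, SE 0.18 and adjusted p = 0.00102), with 3-week replicate 4 well above the rest of its group. Its relative Oasl1, which was not on the list, changed by -2.23 ± 0.31 on the log2 scale (± SE), and reads that both could take were not examined. Bst2 (tetherin), which holds enveloped viruses at the cell surface, was at 79.8, 82.1, 69 and 98.9 CPM at 3 weeks against 33.4, 41.5, 35 and 30.4 CPM at 6 weeks (a log2 fold change of -1.23, SE 0.17 and adjusted p = 0.00102).

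Sensors of double-stranded RNA, which were not on the list, were among the 12 falls with the smallest adjusted p. Eif2ak2, the kinase PKR, was at 45.5, 49.9, 44 and 51.7 CPM at 3 weeks against 26.1, 19.8, 20.1 and 21.2 CPM at 6 weeks (a log2 fold change of -1.13, SE 0.14 and adjusted p = 0.000598). Dhx58, the RIG-I-like receptor LGP2, was at 19.1, 19.8, 17.9 and 25.3 CPM at 3 weeks against 10.3, 7.79, 8.19 and 6.29 CPM at 6 weeks (a log2 fold change of -1.33, SE 0.17 and adjusted p = 0.000598). Rnf213, an interferon-inducible E3 ligase, had a log2 fold change of -1.11 ± 0.14, and Parp9 one of -0.66 ± 0.088. Gbp3, a guanylate-binding protein that was on the list, had one of -1.04 ± 0.15. None had overlapping groups, which was a condition for the 12 falls but not for Gbp3. The call of each interferon gene given values here, other than Irf1, held under all 16 alternatives run on it.

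**Figure D2:**
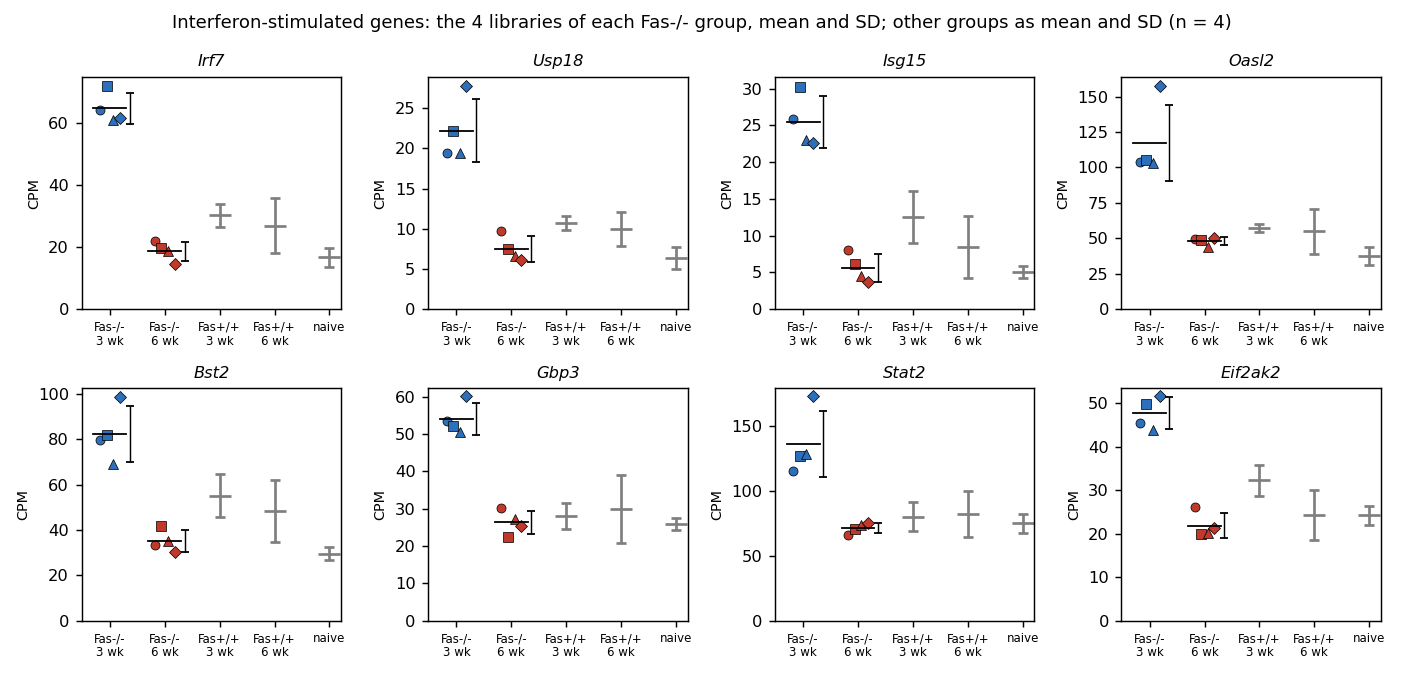
CPM of 8 interferon-stimulated genes in each Fas-/- library at 3 weeks (blue) and 6 weeks (red), with a marker shape per replicate, a line at the mean and an SD bar, and the mean and SD (grey, n = 4) of the Fas+/+ and naive groups. In every panel the 6-week Fas-/- libraries lie below the 3-week ones; for Irf7 they lie at 14.6 to 21.9 CPM against 61.1 to 71.9 CPM, and the Fas+/+ means at 3 and 6 weeks are 30.2 and 26.9 CPM.

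The same list did not fall in Fas+/+ mice by this test. There, 0 of 30 members were called lower and 2 higher (edgeR), against 10.9% and 12% of all genes, with a median of -0.14. The summed list in Fas+/+ libraries was at 1081, 946.9, 895.5 and 896 CPM at 3 weeks against 635, 921.1, 1136 and 779.9 CPM at 6 weeks. Replicates 1 and 4 at 6 weeks thus lay below every 3-week library and replicate 3 above. Replicate 2 at 6 weeks was the highest of its group in summed macrophage (188.2 CPM), platelet (111 CPM) and alveolar epithelial (2118 CPM) markers. Irf7 was at 30.2 ± 3.61 CPM at 3 weeks and 26.9 ± 8.78 CPM at 6 weeks in Fas+/+ mice (mean ± SD, n = 4; log2 fold change -0.17, adjusted p = 0.551), and at 16.7 ± 3.12 CPM in naive mice. The 6-week Fas-/- mean of 18.8 ± 3.07 CPM stood beside the naive one, and the 3-week Fas-/- mean of 64.8 ± 4.94 CPM was above every other group mean. Time since the last tamoxifen dose differs between the weeks in Fas-/- mice only, and its part was not tested. The difference between genotypes in the change over time was tested directly as an interaction. By edgeR 0 of the 30 members passed after adjustment, while 23 had an unadjusted p under 0.05, as had 1210 of all 15773 genes tested. Other lists held such members too, among them 8 of 10 platelet, 7 of 17 alveolar epithelial, 9 of 14 lipofibroblast and 8 of 18 retinoid genes. In these 4 lists the median difference was -3.25, -1.8, -0.422 and -0.0527 on the log2 scale, against -1.13 in the interferon list. Irf7 had a difference of -1.62 on the log2 scale, SE 0.27, adjusted p = 0.0742 and Usp18 a difference of -1.46 on the log2 scale, SE 0.25, adjusted p = 0.0742. By DESeq2 the interaction had an adjusted p of 3.14e-05 for Irf7, 0.000116 for Usp18, 0.00258 for Oasl2 and 0.0144 for Bst2. On simulated counts of the change over time in Fas-/- mice, 14.9% of DESeq2 calls were false, against 4.1% with edgeR. These counts were drawn with the spread that edgeR had estimated for each gene, which can favour edgeR. The interaction itself was not simulated. DESeq2 values were read by gene only for Nav2 and the 12 falls with the smallest adjusted p. Those falls were chosen by the change in Fas-/- mice, which is itself part of the interaction. Of the other interferon genes among them, Dhx58 and Parp9 passed by DESeq2 (adjusted p = 0.0113 and 0.0282). Rnf213, Eif2ak2 and Oasl1 did not (0.0528, 0.0817 and 0.121). Over the settings run, the adjusted p for Irf7 reached 0.188, without 6-week replicate 4, and was 0.0308 without 3-week replicate 4.

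Genes of antigen presentation by MHC class I, which interferons induce, fell in part. Of 19 MHC genes, 4 were called lower (median -0.88), and the count was 1 to 10 with each Fas-/- library left out in turn, with 1 without 6-week replicate 3, 2 without 3-week replicate 4 and 6-week replicates 1 and 4 and 10 without 6-week replicate 2, and 1 without both libraries high in endothelial markers. B2m, the invariant light chain of class I, was at 1063, 1025, 962 and 1282 CPM at 3 weeks against 779, 688, 669 and 722 CPM at 6 weeks (a log2 fold change of -0.60, SE 0.13 and adjusted p = 0.0105), and the call was lost without both libraries high in endothelial markers and with the epithelial covariate (highest adjusted p 0.0585). Psmb8, an immunoproteasome subunit, was at 40.4, 36.5, 30.9 and 63.7 CPM at 3 weeks against 23.2, 28.6, 19.4 and 22.1 CPM at 6 weeks (a log2 fold change of -0.88, SE 0.20 and adjusted p = 0.0149), and the call was lost with the 8 Fas-/- libraries alone, with the epithelial covariate and without 6-week replicate 3 (highest adjusted p 0.0779). The heavy chains H2-K1 and H2-D1 had overlapping groups (log2 fold changes of -0.45 and -0.47, adjusted p = 0.274 and 0.183), and reads shared among the H2 paralogs make their counts uncertain. Endothelial cells also express class I genes, and the highest library for each of these 4 genes was 3-week replicate 4, the library highest in endothelial markers. The part of that library in the result was not tested beyond leaving it out, after which 2 members were called.

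Proliferation genes had the highest share of calls of all lists. Of 30 members 28 were called lower (93.3%, against 4.54% of all genes), and the median log2 fold change was -2.43. The count was 17 to 28 with each Fas-/- library left out in turn, with 17 without 6-week replicate 3 and 18 without 3-week replicate 2, and it was 25 without both libraries high in endothelial markers. A CCAAT box lies before many cell-cycle genes. It was searched as CCAAT on both strands in the same 250-base windows and found in 37.5% of all genes, 39.9% of tested genes and 22 of 25 list members with a window (88.0%), and at least 2 copies were found in 11.5% of all genes and 52.0% of these members. The windows of Mcm5 (chr8:75109259-75109508) and Plk1 (chr7:122159185-122159434), both on the forward strand, are given with the box in capitals. Here too, genes were printed only if their window holds a match.
Mcm5: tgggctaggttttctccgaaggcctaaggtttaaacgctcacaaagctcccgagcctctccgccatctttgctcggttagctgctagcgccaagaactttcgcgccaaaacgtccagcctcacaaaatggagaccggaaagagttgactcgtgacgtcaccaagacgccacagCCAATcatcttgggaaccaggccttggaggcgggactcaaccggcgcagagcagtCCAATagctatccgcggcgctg
Plk1: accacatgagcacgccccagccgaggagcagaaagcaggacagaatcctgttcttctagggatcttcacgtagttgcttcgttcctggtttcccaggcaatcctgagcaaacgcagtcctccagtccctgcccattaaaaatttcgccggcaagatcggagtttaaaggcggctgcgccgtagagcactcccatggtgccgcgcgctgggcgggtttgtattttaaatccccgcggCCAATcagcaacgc
Mki67 (ENSMUSG00000031004, chr7:135689784-135716361, reverse strand), the nuclear antigen of cycling cells, was at 44.1, 56.2, 46.5 and 14.6 CPM at 3 weeks against 5.79, 6.35, 2.99 and 5.7 CPM at 6 weeks (a log2 fold change of -2.95, SE 0.62 and adjusted p = 0.00915). Top2a, the topoisomerase that untangles replicated chromosomes, was at 26.2, 29.4, 21.3 and 6.62 CPM at 3 weeks against 2.56, 2.61, 0.903 and 2.51 CPM at 6 weeks (a log2 fold change of -3.27, SE 0.69 and adjusted p = 0.00925). For both, 3-week replicate 4 was the lowest of its group by over 2-fold and still above every 6-week library.

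The fall covered several phases of the cell cycle. In DNA replication, the helicase subunits Mcm2 and Mcm5 had log2 fold changes of -1.15 ± 0.22 and -1.77 ± 0.31 (± SE). Plk1, a mitotic kinase, was at 9.47, 9.8, 7.79 and 3.16 CPM at 3 weeks against 1.2, 1.23, 1.47 and 1.18 CPM at 6 weeks (a log2 fold change of -2.57, SE 0.46 and adjusted p = 0.00351). Aurkb, the kinase of the chromosomal passenger complex, and Birc5 (survivin), a member of the same complex, had log2 fold changes of -3.96 ± 0.77 and -3.15 ± 0.65, and Prc1, a spindle midzone protein, and the kinesin Cenpe had changes of -3.09 ± 0.60 and -3.15 ± 0.59. The members named here other than Cdk1 kept their call in all 16 alternatives. Cdk1, the mitotic cyclin-dependent kinase, was at 7.16, 8.67, 5.26 and 2.29 CPM at 3 weeks against 1.41, 1.9, 0.508 and 1.33 CPM at 6 weeks (a log2 fold change of -2.17, SE 0.61 and adjusted p = 0.0345), and its call was lost in 6 of the 16 alternatives, each of them the removal of 1 library. In Fas+/+ mice 29 of 30 members were called lower (against 10.9% of all genes, median -2.77), and 0 of the 30 passed the interaction test (edgeR; 0 also at an unadjusted p under 0.05). Against naive mice, whose Mki67 stood at 19 ± 15.7 CPM, the 6-week Fas-/- mean was 5.21 ± 1.51 CPM.

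Among regulators of the cell cycle and the p53 response, 3 of 21 rose and 2 fell (median 0.061). Cdkn1c, the cyclin-dependent kinase inhibitor p57, was at 30.5, 30.6, 30.1 and 23 CPM at 3 weeks against 44.2, 56, 54.8 and 43.8 CPM at 6 weeks (a log2 fold change of 0.80, SE 0.17 and adjusted p = 0.00922), and its call was lost without both libraries high in endothelial markers (highest adjusted p 0.0514). The p53 targets Sesn1, a stress-response regulator, and Trp53inp1 rose, with log2 fold changes of 0.76 ± 0.14 and 0.40 ± 0.091. Mdm2, the ligase that degrades p53, was at 66.7, 66.6, 64.8 and 62.8 CPM at 3 weeks against 56.2, 47.9, 47.4 and 48 CPM at 6 weeks (a log2 fold change of -0.39, SE 0.069 and adjusted p = 0.00347), and Plk3, a stress-inducible polo-like kinase, had a log2 fold change of -1.10 ± 0.19. Cdkn1a, the inhibitor p21, had overlapping groups (a log2 fold change of -0.051, SE 0.16 and adjusted p = 0.869).

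Fibrillar collagens did not pass the test in either direction (0 of 9 called by edgeR or by DESeq2, 2 at an unadjusted p under 0.05 in edgeR, median -0.41), and 0 were called with any Fas-/- library left out. Col1a1, which encodes the main chain of collagen I, was at 11140, 13460, 10480 and 5608 CPM at 3 weeks against 8034, 5621, 4790 and 6800 CPM at 6 weeks (a log2 fold change of -0.69, SE 0.38 and adjusted p = 0.267). Replicate 4 at 3 weeks lay within the 6-week range and the other 3-week libraries lay above it. Without that library the log2 fold change was -0.89 (adjusted p = 0.174). Col3a1, the chain of collagen III, was at 11550, 13330, 10830 and 6582 CPM at 3 weeks against 11380, 7970, 6901 and 9376 CPM at 6 weeks (a log2 fold change of -0.25, SE 0.29 and adjusted p = 0.629), and its groups overlapped. In Fas+/+ mice 8 of the 9 were called lower (against 10.9% of all genes, median -1.34), but 0 of the 9 passed the interaction test (edgeR; 1 at an unadjusted p under 0.05), so a difference between genotypes was not shown. The Fas+/+ 3-week group also holds 1 library low in fibrillar collagens, at a summed 11820 CPM against 38100 to 48890 CPM, and it is the library of that group highest in blood endothelial markers, at 15810 CPM. In naive mice Col1a1 was at 5919 ± 1760 CPM.

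Of the profibrotic fibroblast markers, 1 of 11 fell. It was Spp1 (ENSMUSG00000029304, chr5:104435118-104441050, forward strand), which encodes osteopontin, a secreted phosphoprotein of inflamed and fibrotic tissue. It was at 2033, 2697, 1844 and 273 CPM at 3 weeks against 207, 133, 153 and 135 CPM at 6 weeks (a log2 fold change of -3.45, SE 0.67 and adjusted p = 0.00592). Replicate 4 at 3 weeks was far below its group but above all 6-week libraries, and without it the log2 fold change was -3.80 (adjusted p = 0.00271). In naive mice Spp1 was at 57.3 ± 18.1 CPM. The other 10 had log2 fold changes below 0 as well, from -1.54 to -0.051, without passing. Tnc (tenascin C), a matrix protein of injury, was at 1820, 2419, 1783 and 488 CPM at 3 weeks against 969, 620.5, 507 and 656 CPM at 6 weeks (a log2 fold change of -1.24, SE 0.56 and adjusted p = 0.169). Cthrc1, a marker of collagen-producing cells after bleomycin, had a log2 fold change of -1.01 ± 0.56 (adjusted p = 0.267), and Postn (periostin) one of -0.051 ± 0.27 (adjusted p = 0.927). In Fas+/+ mice 10 of the 11 were called lower (against 10.9% of all genes, median -2.01, against -0.998 in Fas-/-), and 0 passed the interaction test (edgeR; 2 at an unadjusted p under 0.05).

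Of 26 matricellular and provisional matrix genes 3 were lower and 1 higher (median -0.24), and the count of lower ones was 1 to 3 with each Fas-/- library left out in turn, with 1 without 3-week replicates 1 and 2 and 6-week replicates 2, 3 and 4. Beside Spp1, Has2, the hyaluronan synthase, was at 28.2, 38.6, 26 and 6.37 CPM at 3 weeks against 7.83, 4.41, 3.95 and 5.11 CPM at 6 weeks (a log2 fold change of -2.22, SE 0.59 and adjusted p = 0.0269), and its call was lost without 3-week replicate 1, without 3-week replicate 2, without 6-week replicate 2, without 6-week replicate 3 and without 6-week replicate 4 (highest adjusted p 0.0878). The hyaluronan-binding proteoglycan Vcan (versican) had a log2 fold change of -1.18 ± 0.33, with a call lost in 7 of the 16 alternatives. Tnxb (tenascin X), found in resting connective tissue, was higher by 0.49 ± 0.15, with a call lost in 11 of the 16 alternatives. Fn1 (fibronectin) and Thbs1 (thrombospondin 1) had log2 fold changes of -0.70 ± 0.34 and -1.01 ± 0.32 and did not pass (adjusted p = 0.205 and 0.057). For Thbs1 no 6-week library reached the lowest 3-week library.

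Other matrix lists moved in few members. The small leucine-rich proteoglycans, which decorate collagen fibrils, had 3 of 12 called higher (25%, against 4.48% of all genes, median 0.43), the count being 1 to 3 with each Fas-/- library left out in turn, with 1 without 6-week replicates 3 and 4, and 1 without both libraries high in endothelial markers. Prelp, which links basement membranes to connective tissue, was at 2412, 2250, 2556 and 1680 CPM at 3 weeks against 3552, 3265, 3870 and 3629 CPM at 6 weeks (a log2 fold change of 0.69, SE 0.13 and adjusted p = 0.00481), with no overlap and a call under all 16 alternatives. Omd (osteomodulin) and Aspn (asporin) were higher by 1.07 ± 0.26 and 0.67 ± 0.20, with calls lost in 3 and 13 of the 16 alternatives, and Dcn (decorin) had overlap-free groups but an adjusted p of 0.054.

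Of 17 elastic fiber genes 2 were higher (11.8%) and 0 lower (median -0.013), and the higher count was 1 to 2 with each Fas-/- library left out in turn, with 1 without 3-week replicates 1, 2, 3 and 4 and 6-week replicates 1, 3 and 4, and 1 without both libraries high in endothelial markers. Ltbp4, which binds latent TGF-beta and organises elastin, was at 1344, 1155, 1415 and 1049 CPM at 3 weeks against 1727, 1830, 2185 and 2032 CPM at 6 weeks (a log2 fold change of 0.65, SE 0.13 and adjusted p = 0.00599), and Fbln1 (fibulin 1) was higher by 0.37 ± 0.11 with a call lost in 13 of the 16 alternatives. Eln, elastin itself, had overlapping groups (a log2 fold change of -0.25, SE 0.27 and adjusted p = 0.601). Of 21 basement membrane genes 2 were lower (9.52%) and 1 higher (4.76%; median 0.059), and the lower count was 0 to 4 with each Fas-/- library left out in turn, with 0 without 6-week replicate 3, 1 without 3-week replicate 2 and 6-week replicate 4 and 4 without 6-week replicate 2. Col4a1 and Col4a2, the chains of the common collagen IV, had log2 fold changes of -0.56 ± 0.12 and -0.51 ± 0.13, both calls being lost without 6-week replicate 3, and Lamb2 (laminin beta 2) was at 684, 681, 718 and 577 CPM at 3 weeks against 908, 897, 899 and 897 CPM at 6 weeks (a log2 fold change of 0.44, SE 0.084 and adjusted p = 0.00547). Of 18 other collagens 1 was lower (median -0.03), namely Col25a1, a transmembrane collagen under 3 CPM in all 8 libraries (a log2 fold change of -2.33, SE 0.62 and adjusted p = 0.0272), with a call lost in 5 of the 16 alternatives and a list share of 5.56%. By edgeR 0 of 28 collagen-modifying and crosslinking enzymes passed, with 7 at an unadjusted p under 0.05, and DESeq2 called 2 higher and 1 lower (median -0.08), with Lox (lysyl oxidase) at -0.35 ± 0.23 and Loxl2 at -0.16 ± 0.30 (adjusted p = 0.341 and 0.779).

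Matrix proteases and their inhibitors split. Of 19 members 6 were lower and 3 higher (median -0.29). Timp1, the inducible metalloproteinase inhibitor, was at 267, 355, 249 and 101 CPM at 3 weeks against 58.4, 45.6, 41.9 and 62.6 CPM at 6 weeks (a log2 fold change of -2.22, SE 0.55 and adjusted p = 0.0196), and its call was lost without 3-week replicate 2 and without 6-week replicate 3 (highest adjusted p 0.0692). Timp3, the inhibitor that stays bound to matrix, moved the other way, at 1878, 1655, 1817 and 1832 CPM at 3 weeks against 2358, 2355, 2803 and 2573 CPM at 6 weeks (a log2 fold change of 0.49, SE 0.082 and adjusted p = 0.00265), with no overlap and a call in all 16 alternatives. Among the proteases Mmp9 (gelatinase B), Mmp8 and Mmp13 (collagenases) had log2 fold changes of -2.56 ± 0.62, -2.29 ± 0.60 and -2.75 ± 0.75, with calls lost in 3, 5 and 7 of the 16 alternatives. Mmp12, the macrophage elastase, had 187 counts over the 4 libraries at 3 weeks and 1 at 6 weeks, a ratio of 176 with a 95% counting interval of 31.2 to 6980, and its call was lost in 9 of the 16 alternatives. Mmp2 (gelatinase A) had overlapping groups (a log2 fold change of 0.22, SE 0.21 and adjusted p = 0.526), and Mmp11 was higher by 0.53 ± 0.15 with a call lost in 9 of the 16 alternatives. The count of lower members was 0 to 6 with each Fas-/- library left out in turn, with 0 without 3-week replicate 2 and 6-week replicate 3 and 3 without 3-week replicates 1 and 3 and 6-week replicates 2 and 4, and 2 without both libraries high in endothelial markers. That of higher members was 1 to 4 with each Fas-/- library left out in turn, with 1 without 3-week replicates 1, 2, 3 and 4 and 6-week replicate 3.

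Inflammatory fibroblast genes fell in 7 of 21 members, with none higher and a median of -1.30. The count was 1 to 6 with each Fas-/- library left out in turn, with 1 without 3-week replicate 2 and 6-week replicate 3, 2 without 3-week replicate 1 and 6-week replicate 4 and 4 without 3-week replicate 3 and 6-week replicates 1 and 2. Il6, the acute-phase cytokine, was at 25.2, 29.2, 25.8 and 25.1 CPM at 3 weeks against 5.22, 4.46, 4.4 and 5.7 CPM at 6 weeks (a log2 fold change of -2.41, SE 0.51 and adjusted p = 0.0092). Its 3-week libraries were nearly equal, every 6-week library was lower by over 4-fold, and the call held in all 16 alternatives. The monocyte chemokines Ccl2 and Ccl7 and the neutrophil chemokine Cxcl2 had log2 fold changes of -1.91 ± 0.55, -1.72 ± 0.48 and -1.70 ± 0.47, and the acute-phase gene Saa3 one of -2.58 ± 0.79, with calls lost in 7 to 12 of the 16 alternatives. Lcn2 (lipocalin 2) was at 67.5, 98.3, 65.3 and 102 CPM at 3 weeks against 29.5, 13.6, 10.9 and 21.7 CPM at 6 weeks and did not pass (a log2 fold change of -2.14, SE 0.71 and adjusted p = 0.0686), although its groups did not overlap.

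In the TGF-beta pathway 3 of 22 members fell and none rose (median -0.023). Tgfb1, the ligand, was at 143, 157, 129 and 123 CPM at 3 weeks against 75.2, 75, 54.2 and 66.4 CPM at 6 weeks (a log2 fold change of -1.02, SE 0.16 and adjusted p = 0.00214), with no overlap and a call in all 16 alternatives. Its relative Tgfb3 was at 359, 350.1, 338 and 284 CPM at 3 weeks against 626, 418, 447 and 456 CPM at 6 weeks (a log2 fold change of 0.55, SE 0.17 and adjusted p = 0.0548), also without overlap but upward and not called. Of the pathway's targets, Skil, a repressor of SMAD activity, changed by -0.42 ± 0.082 on the log2 scale. Smooth muscle contractile genes, which mark myofibroblasts and smooth muscle cells, had 0 of 16 called by edgeR or DESeq2 and 2 at an unadjusted p under 0.05 in edgeR (median 0.054). Acta2, alpha-smooth muscle actin, was at 1244, 1292, 1197 and 489.6 CPM at 3 weeks against 982, 963, 1364 and 1081 CPM at 6 weeks (a log2 fold change of 0.056, SE 0.24 and adjusted p = 0.907), and its sign changed without 3-week replicate 4.

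BMP and activin genes were the signaling list with most rises by number, with 6 of 24 higher and 1 lower (median 0.033). Their share of rises, 25%, was also that of the IGF genes. The higher count was 4 to 6 with each Fas-/- library left out in turn, and 4 without both libraries high in endothelial markers. The lower count was 0 to 3 with each Fas-/- library left out in turn, with 0 without 3-week replicates 1, 2 and 3 and 6-week replicates 1, 2, 3 and 4 and 3 without 3-week replicate 4, and 2 without both libraries high in endothelial markers. Bmp3, a ligand that opposes other BMPs, was at 233, 202, 247 and 168 CPM at 3 weeks against 428, 334, 343 and 314 CPM at 6 weeks (a log2 fold change of 0.74, SE 0.17 and adjusted p = 0.012). The extracellular antagonist Chrd (chordin) was higher by 0.73 ± 0.15, and the decoy receptor Bambi by 0.55 ± 0.12. These 3 kept their calls in all 16 alternatives. Bmp4 and Gdf10 were higher by 0.40 ± 0.11 and 0.61 ± 0.17, with calls lost in 8 and 10 of the 16 alternatives. Fst (follistatin), the activin antagonist, was lower, at 98.7, 133, 94.3 and 22.1 CPM at 3 weeks against 28.1, 25.1, 19.4 and 25.8 CPM at 6 weeks (a log2 fold change of -1.82, SE 0.50 and adjusted p = 0.033), with a call lost in 8 of the 16 alternatives.

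Wnt genes had 4 of 33 higher and none lower (median 0.18). Dkk3, a secreted dickkopf-family protein, was at 453, 424, 431 and 309.7 CPM at 3 weeks against 707, 601, 684 and 694 CPM at 6 weeks (a log2 fold change of 0.73, SE 0.11 and adjusted p = 0.0012). Wnt9a, a ligand, and Axin2, a feedback target of beta-catenin, were higher by 0.49 ± 0.11 and 0.42 ± 0.10, the call of Axin2 being lost without 6-week replicate 1 (highest adjusted p 0.052). Of 12 IGF genes 3 were higher (median 0.042), the count being 1 to 3 with each Fas-/- library left out in turn, with 1 without 3-week replicate 2. Igfbp6, a binding protein that favours IGF2, was at 218, 198, 213 and 218 CPM at 3 weeks against 314, 425, 442 and 513 CPM at 6 weeks (a log2 fold change of 1.00, SE 0.18 and adjusted p = 0.0031), Igfbp3 was higher by 1.23 ± 0.30 with a call lost without both libraries high in endothelial markers and without 3-week replicate 2 (highest adjusted p 0.0597), and Igf2 by 0.56 ± 0.15 with a call lost in 7 of the 16 alternatives. Among 19 PDGF and FGF genes (median 0.14) 1 was higher and 1 lower (5.26% each way, near the shares of all genes). The lower count was 0 to 2 with each Fas-/- library left out in turn, with 0 without 6-week replicate 1 and 2 without 6-week replicate 2, and 0 without both libraries high in endothelial markers, and the higher count 1 to 2 with each Fas-/- library left out in turn, with 2 without 3-week replicates 2 and 3 and 6-week replicates 1 and 2. Fgf7, a growth factor for epithelium, was higher by 0.47 ± 0.10 and Spry4, an inhibitor of receptor tyrosine kinase signaling, changed by -0.80 ± 0.19, with a call lost in 5 of the 16 alternatives.

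Mesothelial markers rose. Of 12 members 8 were called higher (66.7%, against 4.48% of all genes), and all 12 had a log2 fold change above 0 (median 0.89). The count was 4 to 9 with each Fas-/- library left out in turn, with 4 without 3-week replicates 1 and 2 and 6-week replicates 2, 3 and 4 and 5 without 3-week replicates 3 and 4, and 2 without both libraries high in endothelial markers. Upk3b (uroplakin 3B), on the surface of mesothelium, was at 119, 122, 136 and 115 CPM at 3 weeks against 170.1, 328, 266 and 273 CPM at 6 weeks (a log2 fold change of 1.07, SE 0.25 and adjusted p = 0.0158), and its call was lost without both libraries high in endothelial markers and with the epithelial covariate (highest adjusted p 0.0736). Msln (mesothelin) was at 118, 129, 130.1 and 109 CPM at 3 weeks against 162, 327, 238 and 215 CPM at 6 weeks (a log2 fold change of 0.96, SE 0.27 and adjusted p = 0.0343), with a call lost in 9 of the 16 alternatives. The call of Gpm6a, a membrane glycoprotein, held in all 16 alternatives, at 45.7, 41.3, 48.5 and 50.2 CPM at 3 weeks against 73.1, 130.2, 108 and 102 CPM at 6 weeks (a log2 fold change of 1.16, SE 0.24 and adjusted p = 0.0092), as did that of the transcription factor Bnc1, higher by 1.26 ± 0.24. Aldh1a2, the retinoic acid-synthesising enzyme that mesothelium expresses, was higher by 0.80 ± 0.20, with a call lost in 5 of the 16 alternatives. For Upk3b and Msln no library crossed between weeks, and the lowest 6-week library was replicate 1 for both. In Fas+/+ mice 8 of 12 were called higher too (against 12% of all genes, median 0.96), and the naive mean of Upk3b was 276 ± 95.7 CPM.

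**Figure D3:**
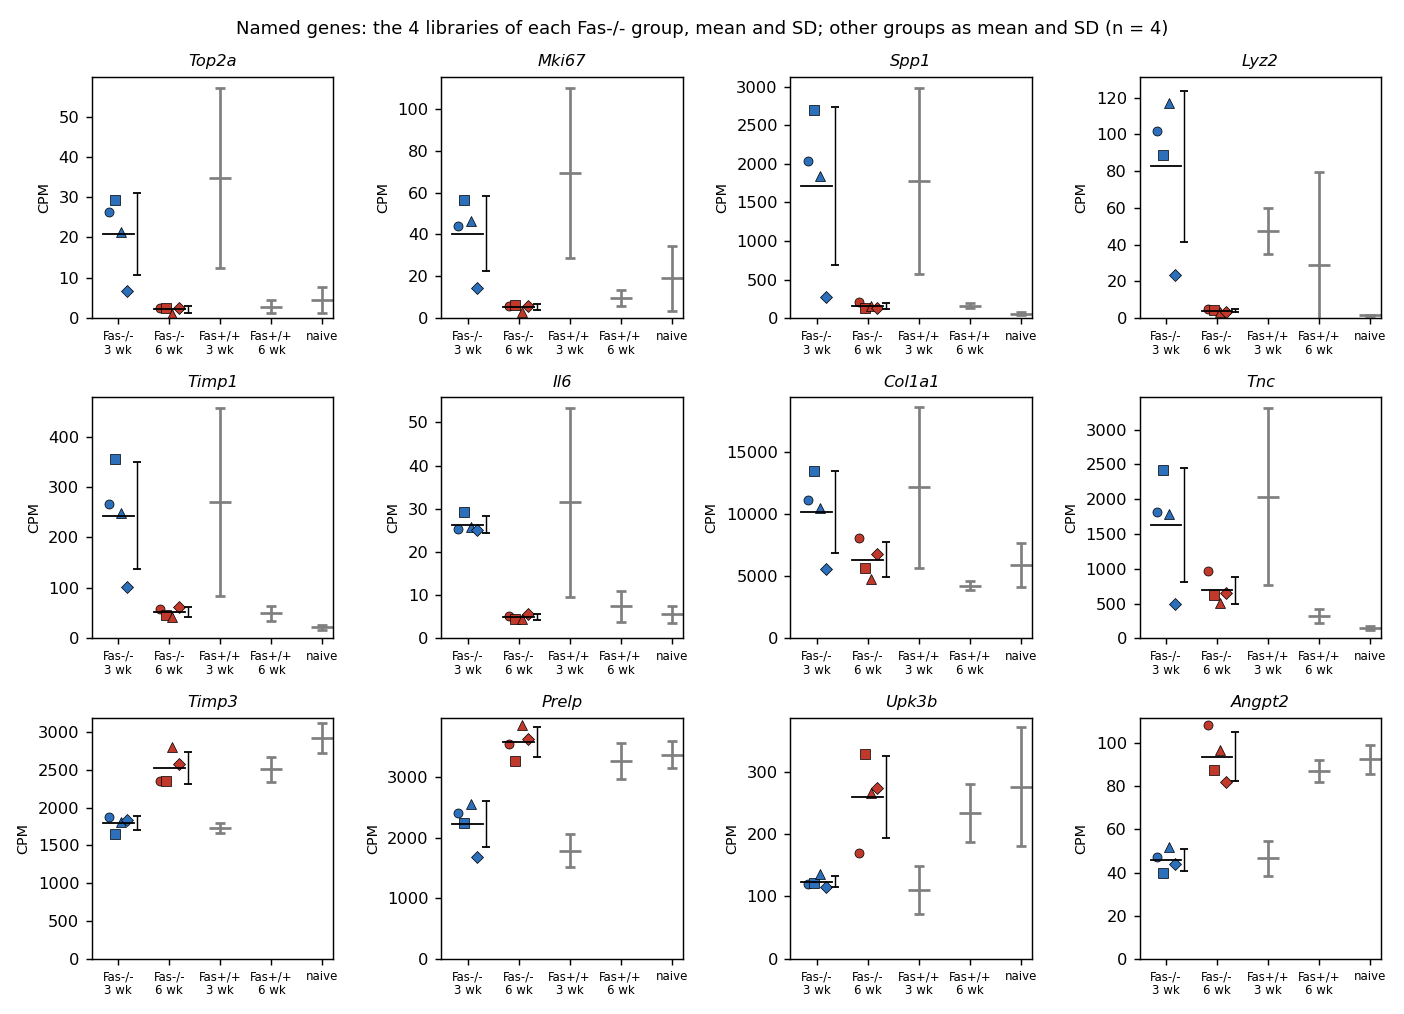
CPM of 12 named genes in each Fas-/- library at 3 weeks (blue) and 6 weeks (red), with a marker shape per replicate, a line at the mean and an SD bar, and mean and SD (grey, n = 4) of the other groups, drawn from 0. Replicate 4 at 3 weeks (diamond) lies low for Mki67, Spp1, Lyz2, Col1a1 and Tnc, and for Spp1 it is at 273.1 CPM where the other 3 are at 1844 to 2697 CPM. The SD bar of Lyz2 in Fas+/+ mice at 6 weeks is drawn to 0.

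Lists of other mesenchymal cells had 0 to 3 members called each. The shares called higher were 14.3% of lipofibroblast and 25% of ductal and airway myofibroblast markers, against 4.48% of all genes. Of 14 lipofibroblast markers 2 were higher (median 0.23), the count being 0 to 3 with each Fas-/- library left out in turn, with 0 without 3-week replicate 2 and 6-week replicates 3 and 4 and 1 without 3-week replicate 4 and 6-week replicate 1, and 0 without both libraries high in endothelial markers. They were Inmt, a methyltransferase of lung mesenchyme, at 1516, 1105, 1608 and 1426 CPM at 3 weeks against 2177, 2219, 2970 and 2628 CPM at 6 weeks (a log2 fold change of 0.82, SE 0.21 and adjusted p = 0.0256), and Itga8 (integrin alpha 8), higher by 0.58 ± 0.15, with calls lost in 4 and 7 of the 16 alternatives. Of 12 ductal and airway myofibroblast markers 3 were higher (median 0.35), among them Aspn and Mustn1 (the latter by 0.52 ± 0.14 with a call lost in 7 of the 16 alternatives). Their count was 1 to 3 with each Fas-/- library left out in turn, with 1 without 3-week replicates 2 and 4 and 6-week replicate 3, and 1 without both libraries high in endothelial markers. Adventitial fibroblast markers had 0 of 13 called by edgeR, 5 at an unadjusted p under 0.05 and 1 called higher by DESeq2 (median 0.18). Pericyte markers had 0 of 14 called by either tool and 2 at an unadjusted p under 0.05 (median 0.30). Of 18 retinoid metabolism genes 2 were higher (median 0.17), Aldh1a2 and Rarres2 (chemerin), the latter at 268, 259.8, 267 and 218 CPM at 3 weeks against 309, 386, 391 and 414 CPM at 6 weeks (a log2 fold change of 0.57, SE 0.12 and adjusted p = 0.00832). The retinoid count was 1 to 3 with each Fas-/- library left out in turn, with 1 without 3-week replicates 2 and 4 and 6-week replicate 3, and 1 without both libraries high in endothelial markers.

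The 12 rises with the smallest adjusted p belonged to no single list. Angpt2, a ligand of the endothelial Tie2 receptor that pericytes and fibroblasts also make, was at 47.3, 39.9, 51.8 and 44.1 CPM at 3 weeks against 108, 87.8, 97 and 82.1 CPM at 6 weeks (a log2 fold change of 1.04, SE 0.12 and adjusted p = 0.00034). Gas1, a growth arrest-specific membrane protein and hedgehog co-receptor, was at 157, 149, 165 and 138 CPM at 3 weeks against 261, 266, 264 and 304 CPM at 6 weeks (a log2 fold change of 0.85, SE 0.11 and adjusted p = 0.000607). Adamtsl1, a secreted ADAMTS-like protein, was at 60.5, 60.5, 64.8 and 55.9 CPM at 3 weeks against 108, 102, 104 and 108 CPM at 6 weeks (a log2 fold change of 0.81, SE 0.096 and adjusted p = 0.00044). Groups that do not overlap were a condition for being named here. In these 3 genes the lowest 6-week library exceeded the highest 3-week library by over 1.5-fold. All 12 kept their call in each of the 16 alternatives. The Wnt receptor Fzd2 was higher by 0.62 ± 0.085, Agfg2 by 0.52 ± 0.059, the mitochondrial carrier Slc25a29 by 0.77 ± 0.1, the secreted heme-binding protein Nenf by 0.33 ± 0.047, and Smtnl2, Tmem35a and Zcchc3 by 0.61 ± 0.082, 1.18 ± 0.17 and 0.62 ± 0.089. Rn7sk, higher by 0.85 ± 0.12, is a short RNA with many genomic copies that poly-A selection does not target, so its count is uncertain.

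Among higher genes with a mean of at least 5 CPM at 6 weeks, the week in which they are high, the largest log2 fold changes included those of Fxyd3 (1.56 ± 0.34), an ion transport regulator, Irf4 (1.40 ± 0.24), an interferon regulatory factor of lymphocytes and some macrophages, Angptl7 (1.40 ± 0.34), Irs3 (1.28 ± 0.28) and Bnc1. Irf4 was at 2.21, 2.06, 3.12 and 1.94 CPM at 3 weeks against 5.17, 5.89, 7.11 and 6.44 CPM at 6 weeks, reaching 5 CPM only at 6 weeks, and the groups did not overlap. Calls were lost for Fxyd3 in 1 of the 16 alternatives and for Angptl7 in 3 of the 16 alternatives.

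Of the death machinery, 13.3% of extrinsic apoptosis genes and 20% of BCL2 and IAP genes were called lower, against 4.54% of all genes. Of 15 extrinsic apoptosis genes 2 fell (median -0.29), the count being 0 to 5 with each Fas-/- library left out in turn, with 0 without 6-week replicates 1 and 3, 1 without 3-week replicates 2 and 4 and 6-week replicate 4 and 5 without 6-week replicate 2. Among them was the TNF receptor Tnfrsf1a (-0.32 ± 0.08 on the log2 scale), with a call lost in 7 of the 16 alternatives. Casp8 and Fadd, which act directly under Fas, had log2 fold changes of -0.60 ± 0.20 and 0.039 ± 0.16 (adjusted p = 0.0656 and 0.907). In the BCL2 and IAP list 4 of 20 fell and 1 rose (median -0.15), and the count of falls was 1 to 3 with each Fas-/- library left out in turn, with 1 without 6-week replicate 3 and 2 without 3-week replicates 1 and 2 and 6-week replicate 1. The gene that rose was Bmf, a BH3-only protein that promotes death on loss of anchorage, at 21.7, 23.3, 21.9 and 18.6 CPM at 3 weeks against 65.4, 38.3, 38 and 43.9 CPM at 6 weeks (a log2 fold change of 1.12, SE 0.20 and adjusted p = 0.0031). All 6-week libraries were above all 3-week libraries, 6-week replicate 1 was the highest, and the call held in all 16 alternatives. The pore-forming effectors Bax and Bak1 changed by -0.29 ± 0.079 and -0.56 ± 0.16 with calls lost in 7 and 9 of the 16 alternatives, Apaf1 of the apoptosome by -0.46 ± 0.10 with a call lost in 3 of the 16 alternatives, and the fourth was Birc5, counted above among proliferation genes. The antiapoptotic genes Bcl2 and Bcl2l1 had overlapping groups, at 0.11 ± 0.074 and 0.37 ± 0.19.

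Of 20 cholesterol synthesis genes 5 were higher (25%, median 0.42), and the count was 2 to 5 with each Fas-/- library left out in turn, with 2 without 6-week replicate 3 and 3 without 3-week replicates 2 and 4, and 1 without both libraries high in endothelial markers. Insig1, the sterol-sensing retention protein, was at 42.1, 42.1, 37.8 and 31.7 CPM at 3 weeks against 61.1, 57.8, 76.4 and 54.9 CPM at 6 weeks (a log2 fold change of 0.70, SE 0.15 and adjusted p = 0.00869), with no overlap and a call in all 16 alternatives. Lss (lanosterol synthase), Msmo1, Sc5d and Pmvk were higher by 0.69 ± 0.16, 0.78 ± 0.21, 0.45 ± 0.13 and 0.39 ± 0.084, with calls lost in 3, 7, 10 and 1 of the 16 alternatives. Endoplasmic reticulum chaperones and unfolded protein response genes had 4 of 23 higher (median 0.057), the count being 0 to 3 with each Fas-/- library left out in turn, with 0 without 6-week replicate 4, 1 without 3-week replicate 4 and 6-week replicate 3 and 2 without 3-week replicates 2 and 3, and 0 without both libraries high in endothelial markers. Herpud1, which is induced by endoplasmic reticulum stress, was at 111, 111, 108 and 80.1 CPM at 3 weeks against 111, 189.6, 210.5 and 239.6 CPM at 6 weeks (a log2 fold change of 0.87, SE 0.21 and adjusted p = 0.0172). Of 14 genes of arginine, proline, serine and glycine synthesis 2 were lower (median -0.40), the count being 1 to 2 with each Fas-/- library left out in turn, with 1 without 3-week replicates 1 and 2 and 6-week replicates 1, 3 and 4, and 1 without both libraries high in endothelial markers. Ass1, the argininosuccinate synthase, was at 37.2, 38.3, 27.6 and 31.8 CPM at 3 weeks against 15.9, 17.3, 15.3 and 14.2 CPM at 6 weeks (a log2 fold change of -1.10, SE 0.19 and adjusted p = 0.00273) with a call in all 16 alternatives, and Asns changed by -0.87 ± 0.25 with a call lost in 10 of the 16 alternatives. Glycolysis and hypoxia genes had 0 of 22 called by edgeR and 6 at an unadjusted p under 0.05 (median -0.16), while DESeq2 called 2 higher and 1 lower.

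Macrophage and monocyte markers, of cells that the gate is meant to exclude, fell in part. Of 11 macrophage and monocyte markers tested 6 were called lower (54.5%, median -3.07), and the count was 2 to 7 with each Fas-/- library left out in turn, with 2 without 6-week replicate 3 and 3 without 6-week replicate 4. Summed over the list the libraries held 152, 132, 180.5 and 52.2 CPM at 3 weeks against 20.5, 33.1, 25.7 and 25.5 CPM at 6 weeks. Lyz2 (lysozyme), expressed by macrophages, neutrophils and alveolar type 2 cells, was at 102, 88.8, 117 and 23.4 CPM at 3 weeks against 4.96, 4.41, 3.56 and 3.34 CPM at 6 weeks (a log2 fold change of -4.34, SE 0.95 and adjusted p = 0.0111), and 3-week replicate 4 was the lowest of its group. Chil3, a lectin of alveolar macrophages, had 432 counts at 3 weeks and 3 at 6 weeks, a ratio of 135 with a 95% counting interval of 46 to 659, and its call was lost without 6-week replicate 3 (highest adjusted p 0.051). Such intervals cover counting error only. Ctss (cathepsin S), Itgb2 (the beta 2 integrin) and Laptm5, all leukocyte genes, had log2 fold changes of -5.44 ± 1.02, -4.98 ± 1.03 and -4.40 ± 0.89, with 6-week libraries at or under 0.615 CPM. Ptprc, which encodes CD45, was between 0.612 and 1.58 CPM at 3 weeks and at or under 0.261 CPM at 6 weeks (a log2 fold change of -2.96, SE 0.88 and adjusted p = 0.0443), with a call lost in 11 of the 16 alternatives. Macrophages also express Spp1, Timp1 and interferon-stimulated genes. The macrophage sum of 3-week replicate 4, at 52.23 CPM, was below the 131.9 to 180.5 CPM of the other 3-week libraries. Its summed interferon-stimulated genes, at 1701 CPM, were above the 1318 to 1449 CPM of those libraries. In the same library Spp1 and Timp1 were the lowest of the 3-week group, as given above. The part of these cells in the results was not tested.

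Platelet and megakaryocyte markers fell in 4 of 10 members (median -2.20), the count being 1 to 3 with each Fas-/- library left out in turn, with 1 without 3-week replicates 1, 2 and 3 and 6-week replicates 1, 3 and 4 and 2 without 3-week replicate 4, and their summed level was 27.2, 24.9, 32.1 and 21.8 CPM at 3 weeks against 5.74, 13.2, 6.43 and 6.98 CPM at 6 weeks. Gp5, a glycoprotein of the von Willebrand factor receptor, was at 1.72, 1.36, 1.51 and 1.73 CPM at 3 weeks against 0.0522, 0.41, 0.0565 and 0 CPM at 6 weeks (a log2 fold change of -3.54, SE 0.71 and adjusted p = 0.007) with a call in all 16 alternatives. Blood endothelial markers were not called in the full comparison (edgeR called 0 of 18, with 2 at an unadjusted p under 0.05, and DESeq2 called 1 lower). Once 6-week replicate 2 was left out, 15 of 18 were called lower, as were 6 of 9 lymphatic endothelial markers. That setting keeps 3-week replicate 4, the library highest in endothelial markers. Without 3-week replicate 4, 0 of 18 blood endothelial markers were called (median 0.117). Without both libraries 2 of 18 blood and 1 of 9 lymphatic endothelial markers were called lower. In full, the lymphatic list had 1 of 9 higher (Sema3d, by 0.61 ± 0.14; median -0.72) and lymphocyte markers 1 of 6 lower (Ptprc; median 0.27), with a summed level of 71.6 ± 33.1 CPM at 3 weeks and 118 ± 54.6 CPM at 6 weeks (mean ± SD, n = 4). Schwann cell and neuronal markers had 1 of 11 higher (Mbp, by 0.81 ± 0.23 with a call lost in 10 of the 16 alternatives; median 0.18). Alveolar epithelial markers had 0 of 17 called by edgeR, 6 at an unadjusted p under 0.05 and 1 called lower by DESeq2 (median -0.59). Airway epithelial markers (0 of 5, median -0.78) and red cell markers (0 of 9, median 0.81) had no call by either tool, with 0 and 1 at an unadjusted p under 0.05. The surfactant gene Sftpc, the marker of alveolar type 2 cells, was at 36.7, 35.5, 43.8 and 56.7 CPM at 3 weeks against 18, 10.9, 7.17 and 6.69 CPM at 6 weeks (a log2 fold change of -2.02, SE 0.96 and adjusted p = 0.197): no library crossed between the weeks, and the gene was not called. Of 21 immediate early genes, which cell dissociation is known to induce, 4 were lower (median -0.38), the count being 1 to 4 with each Fas-/- library left out in turn, with 1 without 6-week replicates 2, 3 and 4 and 2 without 3-week replicate 2 and 6-week replicate 1, and 1 without both libraries high in endothelial markers. They were Ier3 (-1.18 ± 0.23), Egr2, Egr3 and Nr4a2, with Fos at 0.34 ± 0.20 (adjusted p = 0.303), and 0 of 11 mitochondrially encoded genes (median 0.037) and 0 of 5 sex-linked genes (median -0.68) were called by edgeR or DESeq2 or had an unadjusted p under 0.05 in edgeR.

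The change over time was set beside that of Fas+/+ mice, which share no library with it. In Fas+/+ mice 1890 genes were called higher (12%) and 1725 lower (10.9%), but the difference between genotypes passed the test for 1 gene of 15773 (0.00634%), with 1210 at an unadjusted p under 0.05, 11 once the threshold was relaxed to 0.1, and 90 by DESeq2. That gene was Nav2 (ENSMUSG00000052512, chr7:48908716-49610090, forward strand), a neuron navigator that links the cytoskeleton to migration, at 82.9, 78.1, 93.7 and 84.4 CPM at 3 weeks against 67.5, 66, 73.1 and 62.2 CPM at 6 weeks in Fas-/- mice (a log2 fold change of -0.34, SE 0.08 and adjusted p = 0.017). In Fas+/+ mice it was at 57.8 ± 4.65 CPM at 3 weeks and 79.4 ± 7.13 CPM at 6 weeks (mean ± SD, n = 4; log2 fold change 0.46, adjusted p = 0.000831), giving a difference of -0.79 on the log2 scale, SE 0.11, adjusted p = 0.0269. The interaction for Nav2 was not called without 3-week replicate 1, without 3-week replicate 3, without 6-week replicate 2, without 6-week replicate 4 and with the 16 libraries of bleomycin-instilled mice alone, with an adjusted p of up to 0.122. Leaving out 3-week replicate 4 raised the number of genes called for the interaction to 29.

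**Figure D4:**
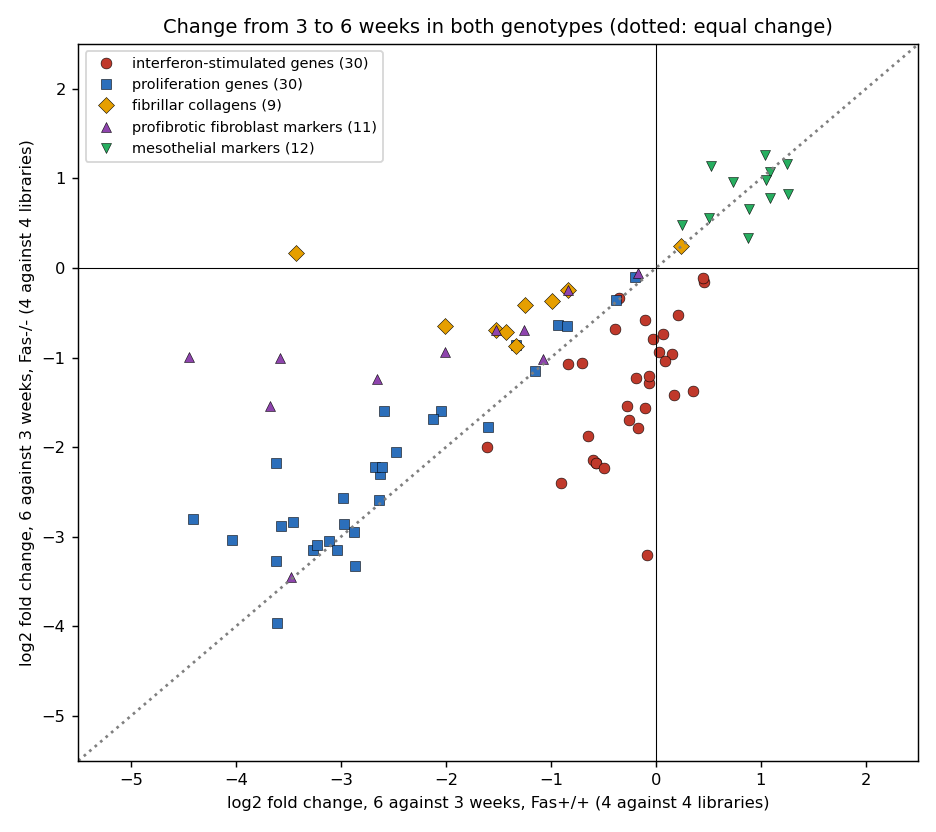
Each point is a gene of 1 of 5 lists, with its log2 fold change from 3 to 6 weeks in Fas+/+ mice on the x axis and in Fas-/- mice on the y axis (4 against 4 libraries each), and the dotted line marks equal change. All but 1 of the 30 interferon-stimulated genes lie below the line, with medians of -0.14 and -1.26; fibrillar collagens (9) and profibrotic markers (11) lie on or above it, with medians of -1.34 and -0.41 and of -2.01 and -1.0; proliferation genes and mesothelial markers lie nearer to it. By edgeR no gene of these lists passed the interaction test. DESeq2 was read by gene only for Nav2 and the 12 falls with the smallest adjusted p. The list members among those falls that passed by DESeq2 were Irf7, Usp18, Oasl2 and Bst2.

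Single-cell libraries of the same kind of cells, 1 per condition and each from pooled mice, gave a second readout of the named genes. The libraries labelled Fas-/- 3 weeks and 6 weeks held 2933 and 3399 barcodes, of which 2608 and 2944 had 200 to 7500 genes and at most 20% mitochondrial UMIs, with median depths of 5768 and 8675 UMIs, and 289 barcodes occurred in both. Doublets were removed only by the upper limit on genes. With 1 library per week there is no test of the weeks, and the intervals given are exact 95% Poisson intervals that cover counting error only. Of the genes named for the size or support of their bulk change, 35 had at least 20 UMIs over both libraries, and each of the 35 went the other way: the 17 higher at 6 weeks in bulk were lower per UMI in the library labelled 6 weeks, and the 18 lower in bulk were higher in it. The counting intervals of the weeks were apart for 13 of the 17 and 16 of the 18. In cells without a UMI of a lineage marker, 34 of 34 went the other way.

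Levels of single genes show the size of these differences. Spp1 was at 4.38 UMIs per 10000 (4.28 to 4.48) in the library labelled 3 weeks and 78.2 (77.9 to 78.5) in the library labelled 6 weeks. Irf7 was at 0.145 UMIs per 10000 (0.127 to 0.164) in the library labelled 3 weeks and 0.602 (0.576 to 0.629) in the library labelled 6 weeks, and Isg15 at 0.455 UMIs per 10000 (0.424 to 0.488) in the library labelled 3 weeks and 1.66 (1.61 to 1.7) in the library labelled 6 weeks. Each interval lies far from the other, with the library labelled 6 weeks higher. Top2a was at 0.0305 UMIs per 10000 (0.0227 to 0.0399) in the library labelled 3 weeks and 0.0781 (0.069 to 0.0881) in the library labelled 6 weeks, Timp1 at 1.28 UMIs per 10000 (1.23 to 1.34) in the library labelled 3 weeks and 8.94 (8.84 to 9.04) in the library labelled 6 weeks and Col1a1 at 21.6 UMIs per 10000 (21.4 to 21.8) in the library labelled 3 weeks and 41.7 (41.5 to 42) in the library labelled 6 weeks. Of the genes that rose in bulk, Gas1 was at 3.26 UMIs per 10000 (3.17 to 3.35) in the library labelled 3 weeks and 1.85 (1.8 to 1.89) in the library labelled 6 weeks and Upk3b at 1.86 UMIs per 10000 (1.8 to 1.93) in the library labelled 3 weeks and 1.21 (1.17 to 1.25) in the library labelled 6 weeks. The Fas+/+ single-cell libraries, read after these values were seen, ran the same way: of the named genes also called in Fas+/+ bulk, 21 of 21 went against it (15 higher in bulk and 6 lower). The titles and the file names of these libraries give the same weeks. Profibrotic markers summed to 51030 ± 24390 CPM at 3 weeks and 21460 ± 2603 CPM at 6 weeks in Fas+/+ bulk libraries and to 23560 ± 4482 CPM in naive ones (mean ± SD, n = 4). Single-cell Col1a1 was at 14.5 UMIs per 10000 in the library labelled Fas+/+ 3 weeks, 35.6 in that labelled 6 weeks and 19.1 in the naive one. By this sum the 6-week Fas+/+ bulk group was nearer to naive mice, and by single-cell Col1a1 the library labelled 3 weeks was. The measures are unlike. Of the other matrix and contractile genes read in single cells, most went with Col1a1. Col1a2, Col3a1, Eln, Fn1, Thbs1, Tnc and Cthrc1 were nearer to naive in the library labelled 3 weeks. Fn1 was at 12.5, 24.9 and 8.38 UMIs per 10000 in the libraries labelled Fas+/+ 3 weeks, Fas+/+ 6 weeks and naive. In the same order Tnc was at 0.718, 3.06 and 0.397 and Cthrc1 at 0.146, 1.18 and 0.00712. Postn, Dcn and Acta2 were nearer to naive in the library labelled 6 weeks. Postn was at 1.83, 3.06 and 3.14 and Dcn at 22.2, 18.7 and 19.6. Which labels are right was not tested.

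**Figure D5:**
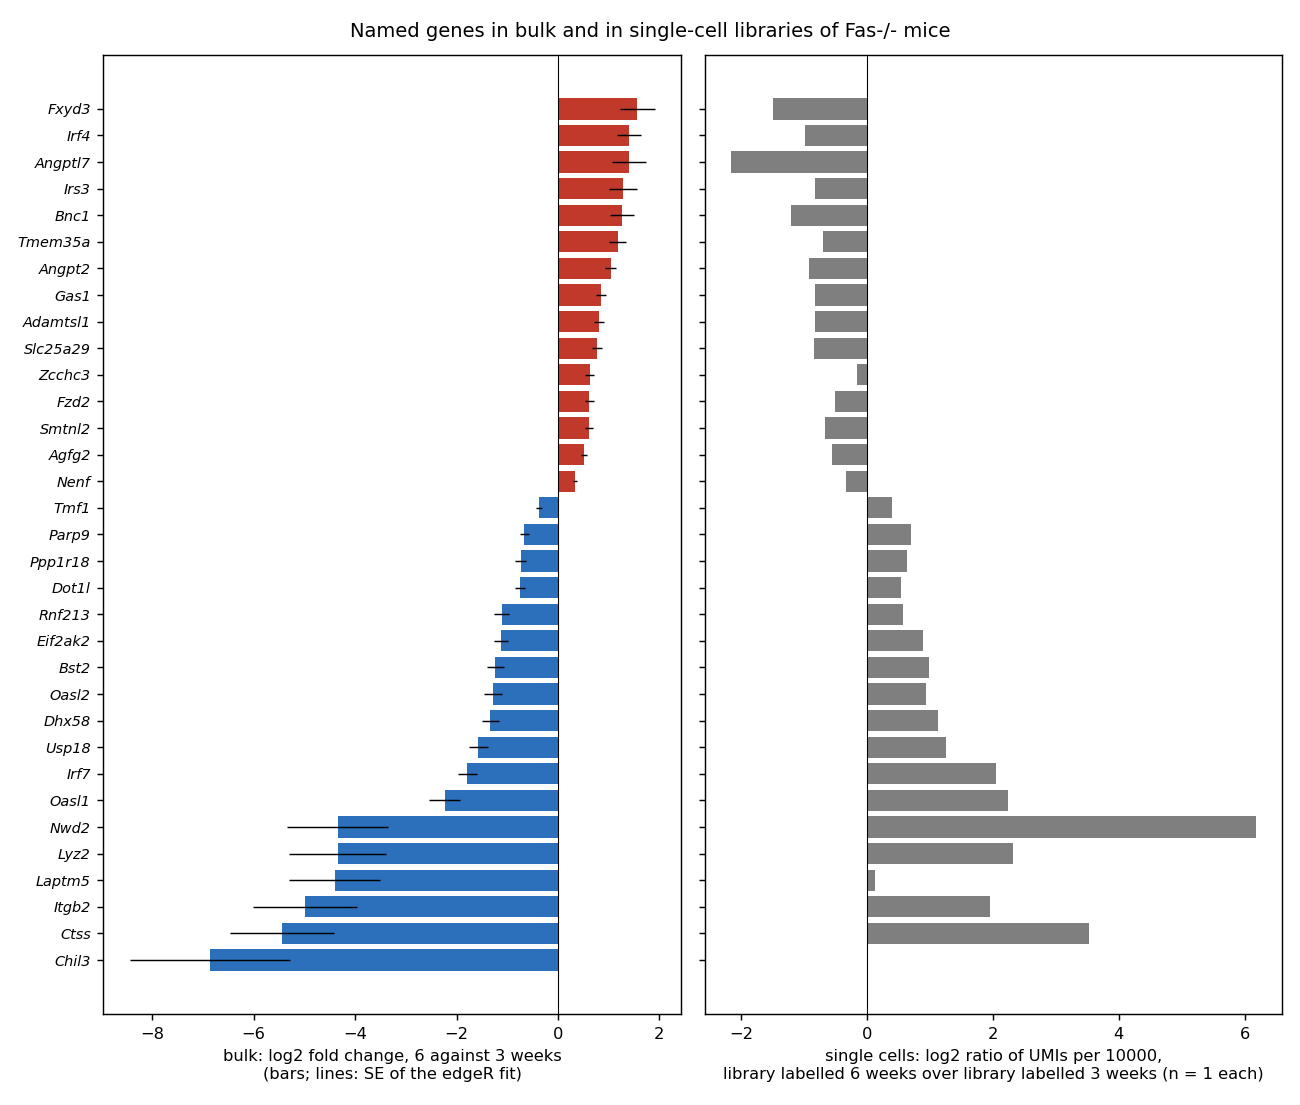
For 33 named genes with at least 20 UMIs, the left panel shows the bulk log2 fold change, 6 against 3 weeks, with SE, and the right panel the log2 ratio of UMIs per 10000 between the single-cell library labelled 6 weeks and that labelled 3 weeks (1 library each, no error). All 15 genes with bars to the right in bulk have bars to the left in single cells, and the reverse holds for the others; Chil3 has no bar because the library labelled 3 weeks held 0 UMIs of it, against 102 in the other.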

How the data were processed

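Bulk Lin- libraries were made with a KAPA stranded mRNA-seq kit and sequenced on a NovaSeq. After skewer trimming and Hisat2 alignment to GRCm38, the authors deposited read counts per Ensembl gene from htseq-count (tool versions are not given in the sources used here, nor is the strand setting, so reads of overlapping antisense genes may be shared). The normalized table was not used. The single-cell files hold the UMI counts that the authors deposited from Cell Ranger.

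All 5 groups entered 1 fit in edgeR 4.0.16 under R 4.3.3: filterByExpr by group (minimum count 10), TMM and quasi-likelihood F tests, with Benjamini-Hochberg adjustment over 15773 genes. The threshold for a call was an adjusted p of 0.05. CPM are TMM-scaled. The SE was derived from the fold change and F. The 16 alternatives included DESeq2 1.42.0, RLE size factors, no filter, a replicate block, endothelial or epithelial marker covariates and each library left out. On simulated counts of this comparison edgeR (15570 genes) found 64.2% of genes changed by 1 log2 unit and 85.1% of those changed by 2, and 4.1% of its calls were false. DESeq2 (15773 genes) found 68.3% and 90%, with 14.9% false. The simulated counts were drawn for each gene on its own, around a mean common to all groups. Their spread was the one edgeR had estimated for that gene, which can favour edgeR over DESeq2. Shifts that many genes of a library share, as in 3-week replicate 4, were thus not simulated. The false shares do not cover them. Named genes were the 12 non-overlapping genes per direction with the smallest adjusted p (mean of at least 1 CPM in the higher group), the 6 per direction with the largest fold change (at least 5 CPM there), of each of 44 lists the first 3 members and up to 6 others with the smallest adjusted p, Fas, and genes called for the interaction. Predicted genes were counted but not named, and some genes that the rule names are not reported here. The comparison, lists and genes were chosen with earlier results of these data known. Coordinates are those of a GRCm38 annotation. Figures used matplotlib 3.10.9.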

Additional observations from a re-analysis of the deposited data

Results flagged for a closer look

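Within the groups of 4 libraries, a library was noted where its gap to the nearest other exceeded Dixon's 95% critical value as a share of the group's range, and 25 of 164 group and measure combinations were noted, where chance gives about 1 in 20. Replicate 4 at 3 weeks accounted for 13 of them. It was highest for the summed blood endothelial markers (gap over range 0.938), lymphatic endothelial markers (0.942), Schwann cell and neuronal markers (0.904), MHC genes (0.87), immediate early genes (0.887), Fas and extrinsic apoptosis genes (0.949), BCL2 family and IAP genes (0.991) and Oasl2 (0.954). It was lowest for small leucine-rich proteoglycans (0.946), smooth muscle contractile genes (0.906), pericyte markers (0.895), matrix metalloproteinases and TIMPs (0.83) and Laptm5 (0.844). Replicate 2 at 6 weeks was highest for blood endothelial (0.878), lymphatic endothelial (0.841) and platelet markers (0.834) and lowest for genes of arginine, proline, serine and glycine synthesis (0.83). Replicate 4 at 6 weeks was highest for lymphocyte markers (0.883), inflammatory fibroblast genes (0.843) and Gas1 (0.881). Replicate 1 at 6 weeks was highest for mitochondrially encoded genes (0.862) and Zcchc3 (0.952) and lowest for airway epithelial markers (0.882), and replicate 2 at 3 weeks was lowest for Tmem35a (0.883) and Fxyd3 (0.84). The change over time differed between genotypes for Nav2, by -0.793 on the log2 scale (adjusted p = 0.0269, edgeR).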

How the results depend on the processing

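The counts of genes called higher and lower, 706 and 716, were 966 and 1059 with DESeq2, which shared 702 and 712 of the calls, and became 422 and 469 without the filter on low counts and 68 and 306 with a log2 fold change of at least 1 required. Without both libraries high in endothelial markers 379 higher genes were called, 336 of them shared. With each Fas-/- library left out in turn the counts ran from 341 to 697 higher and 227 to 759 lower, the genes without overlap from 3116 to 4559 (2748 in full, where fewer libraries separate more easily), and the called list members from 77 to 163 (151 in full). The interaction was called for 1 gene, for 90 with DESeq2, 3 without the filter, 3 with the replicate block, 0 with the 16 libraries of bleomycin-instilled mice (edgeR, with 90 by DESeq2 on all libraries and 1210 at an unadjusted p under 0.05 in the full fit), and 0 to 29 with a library left out.

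With the replicate block 687 genes were higher and 649 lower, and 145 list members were called. Same-numbered libraries of both weeks had correlations of deviations of 0.152, -0.464, 0.0951 and -0.268, so the numbers were not taken to pair the samples; replicate 1 alone correlated best with its own number.

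Signs changed only for genes not called. Fas became 0.037, 0.22, 0.15 and 0.12 without both endothelial-high libraries, with the endothelial covariate, with the epithelial covariate and without 3-week replicate 4. Under those settings Acta2 became -0.12, -0.12, -0.14 and -0.18, and -0.058 without 6-week replicate 3. Postn became 0.038, 0.10, 0.0094 and 0.075 without 3-week replicates 1, 2 and 3 and 6-week replicate 4. Cdh5, an endothelial cadherin, became 0.012 with the endothelial covariate and 0.10 without 3-week replicate 4, where Pecam1 became 0.13. With each library left out in turn, Fas ran from -0.22 to 0.12, Postn from -0.31 to 0.10, Acta2 from -0.18 to 0.17, Cdh5 from -3.59 to 0.10 and Pecam1 from -3.61 to 0.13.

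Of 148 named genes that were called, 72 were called under all 16 alternatives, 24 lost the call under 1 to 4 and 52 under 5 or more, and none changed sign. The 24 non-overlapping genes named for the smallest adjusted p kept their calls under all 16. They were chosen by the strength of these calls in the same libraries, which favours that outcome. Of 118 called genes named from the lists, 47 kept their calls under all 16. In single cells the count of 35 of 35 was 34 of 34 in cells without a lineage UMI. The cause of these changes was not tested beyond the settings' own construction.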

Other observations

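In the single-cell libraries of Fas-/- mice the summed interferon-stimulated genes stood at 9.23 UMIs per 10000 in the library labelled 3 weeks and 20.2 in that labelled 6 weeks, proliferation genes at 1.16 and 2.21, fibrillar collagens at 82.0 and 135, profibrotic markers at 83.3 and 219, mesothelial markers at 11.8 and 7.15, and lymphocyte markers at 0.0627 and 7.26. In kept cells without a UMI of a lineage marker the lymphocyte sum was only 0.0228 and 0.0801. Nwd2, a gene of little known function, was in bulk at 10.8, 13.5, 8.71 and 1.38 CPM at 3 weeks against 0.888, 0.256, 0.339 and 0.197 CPM at 6 weeks (a log2 fold change of -4.34, SE 1.00 and adjusted p = 0.014), and at 0.00117 and 0.0849 UMIs per 10000 in the single-cell libraries labelled 3 and 6 weeks. Its bulk call was lost without 6-week replicate 3 (highest adjusted p 0.0513). Lcn2 stood at 0.461 and 2.44 UMIs per 10000 in these libraries and at 0.0196 in the naive one.

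In the bulk libraries Xist was at 272, 71.5, 309 and 0.306 CPM at 3 weeks against 2.51, 580.3, 659.8 and 142 CPM at 6 weeks, and Ddx3y at 35.4, 51.4, 37.3 and 59.7 CPM at 3 weeks against 55.5, 7.17, 0.565 and 51.5 CPM at 6 weeks. Neither separated the weeks (edgeR adjusted p = 0.679 and 0.803), and several libraries held both transcripts. Xist was lowest in 3-week replicate 4, at 0.306 CPM, and Ddx3y in 6-week replicate 3, at 0.565 CPM. The balance of these transcripts thus differed among libraries, and its part in the results was not tested. Ppp1r18, which encodes phostensin, a phosphatase-targeting protein of leukocytes, Dot1l, the histone H3 methyltransferase, and Tmf1, a Golgi coiled-coil protein, are not interferon-stimulated genes of the list but were among the 12 falls with the smallest adjusted p. Dot1l was at 93.8, 103, 100.3 and 125 CPM at 3 weeks against 59, 64.6, 64.9 and 62.8 CPM at 6 weeks (a log2 fold change of -0.75, SE 0.098 and adjusted p = 0.000734), Ppp1r18 changed by -0.74 ± 0.10 and Tmf1 by -0.37 ± 0.051 on the log2 scale (± SE). In Fas+/+ mice these 3 genes had log2 fold changes of -0.71, -0.77 and -0.47, where Irf7, Usp18, Dhx58 and Parp9 had -0.17, -0.11, -0.29 and -0.13.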
